A study of Arabidopsis thaliana with 4 samples.

Results

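The sites described here are the Pol V summits in pseudogenes and in transposon genes that the annotation files as pseudogenes. A summit was taken when it lay outside every protein-coding gene and inside a gene or pseudogene feature whose gene_biotype in the RefSeq annotation of TAIR10.1 contains the word pseudo. Of the 11478 summits in the deposited list, 559 met this rule, a share of 4.87% (95% Wilson interval 4.49 to 5.28%). Another 18 summits lay in such a feature and also in a protein-coding gene, and were left out. The 559 members fell in 463 of 4843 such features on the 5 nuclear chromosomes, with 385 features holding 1 summit, 63 holding 2, 12 holding 3 and 3 holding 4. Chromosome 1 held 134 members, chromosome 2 held 117, chromosome 3 held 129, chromosome 4 held 55 and chromosome 5 held 124.

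The study examined the DDR complex of Arabidopsis thaliana, made of the chromatin remodeller DRD1, the hinge-domain protein DMS3 and the small protein RDM1. Its 4 anti-FLAG ChIP-seq libraries came from untreated inflorescences of untransformed Col-0 plants and of plants carrying a FLAG-tagged DRD1, DMS3 or RDM1 transgene, with 1 library per line. None of these libraries was analysed here. The summit list came from a single peak call on a published Pol V ChIP and its no-antibody control, and it gives 1 position and 1 whole-number score per peak, so no replicate error or read depth can be given. Intervals on shares, means and densities therefore cover counting error or the spread over sites only.

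RNA polymerase V is a plant-specific polymerase that transcribes the loci on which RNA-directed DNA methylation (RdDM) acts. Its nascent transcripts bring in AGO4 loaded with small interfering RNAs, and the methyltransferase DRM2 then methylates the DNA, also at CHH cytosines (H is A, C or T). RdDM is known for silencing transposons, above all short elements and the edges of long ones in chromosome arms. Pseudogenes are decayed copies of genes, and many loci that carry reading frames of old transposons are filed among them. Non-LTR retrotransposons such as LINEs copy themselves with a reverse transcriptase and have no terminal repeats, Copia elements are retrotransposons flanked by long terminal repeats, and hAT, Mutator and CACTA elements are DNA transposons that move with a transposase.

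The label of transposon genes was checked against the annotation and the protein sequences. Text was scarce, since 3865 of the 4843 features carried no note or product beyond an uncharacterized protein, and 69 carried text that names a transposon. The features were therefore also compared with the translated products of 27419 protein-coding genes. In this comparison 217 of the 559 members (38.8%, interval 34.9 to 42.9%) lay in a feature with a transposon match. That is a match to a protein named after a transposon, reverse transcriptase, polyprotein, transposase or hAT domain, or to AT4G23160. AT4G23160 was placed with Copia for the reason given below, and 33 of the members matched it without matching a Copia-named protein. Another 245 members lay in a feature that matched another protein, 10 matched only uncharacterized proteins and 87 had no match. The reference holds few transposon proteins, so a feature without a transposon match can still derive from a transposon. The features come in 2 biotypes. Of the 3917 features with the biotype pseudogene, 28.1% had a transposon match, against 5.40% of the 926 with the biotype transcribed_pseudogene, which all carry text. Features that matched reverse transcriptase or non-LTR retrotransposon proteins are called non-LTR features below, although a reverse transcriptase match alone does not name the family.

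The sequence at the summit is given for the highest-scoring member of each text class that holds a member, 101 bases each from RefSeq TAIR10.1, read 5′ to 3′ on the annotated strand of the feature with the summit at the middle base. Capitals mark cytosines in CHH context on the printed strand, the context for which RdDM is best known. AT1G25430 has no descriptive text (chr1:8932989-8933089, minus strand), AT3G44410 is a disease resistance pseudogene (chr3:16055706-16055806, minus strand), AT5G28626 is the non-LTR element SADHU1-3 (chr5:10633190-10633290, plus strand), AT5G37017 is a reverse transcriptase pseudogene (chr5:14628338-14628438, minus strand), AT4G02960 is the Copia element RE2 (chr4:1315724-1315824, minus strand), and AT5G28917 is an En/Spm (CACTA) transposase pseudogene (chr5:10937874-10937974, minus strand).
AT1G25430: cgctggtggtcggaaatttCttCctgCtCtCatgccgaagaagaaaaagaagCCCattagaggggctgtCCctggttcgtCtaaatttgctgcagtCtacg
AT3G44410: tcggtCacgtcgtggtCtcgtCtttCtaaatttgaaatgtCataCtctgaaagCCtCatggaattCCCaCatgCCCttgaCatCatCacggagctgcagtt
AT5G28626: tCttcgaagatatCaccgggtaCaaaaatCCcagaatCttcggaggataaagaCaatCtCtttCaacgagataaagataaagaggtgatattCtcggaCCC
AT5G37017: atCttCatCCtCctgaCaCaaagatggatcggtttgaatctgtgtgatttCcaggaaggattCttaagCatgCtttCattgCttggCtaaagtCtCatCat
AT4G02960: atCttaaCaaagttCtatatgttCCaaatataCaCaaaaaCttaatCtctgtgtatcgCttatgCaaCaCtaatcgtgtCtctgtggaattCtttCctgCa
AT5G28917: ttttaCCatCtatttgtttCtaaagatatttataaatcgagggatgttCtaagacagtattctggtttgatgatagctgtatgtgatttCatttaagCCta
The scores of these 6 members were 1349, 1301, 675, 537, 98 and 72 in the same order. The printed strand held 12, 19, 14, 17, 17 and 8 CHH cytosines in that order.

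A second set of sequences is shown because its members are near-copies of each other and each carries a summit. AT2G23330 and AT1G46552 are features of 4494 and 4594 bp that matched AT4G23160, the reference protein of the Copia group described below, and AT5G38975 is a fragment of 425 bp without a protein match. The stretch around the summit of AT2G23330 (chr2:9930598-9930698, minus strand) is given with the aligned stretches of AT1G46552 (chr1:17250594-17250694, minus strand) and AT5G38975 (chr5:15599737-15599837, plus strand). Capitals mark bases that differ from, or have no partner in, AT2G23330.
AT2G23330: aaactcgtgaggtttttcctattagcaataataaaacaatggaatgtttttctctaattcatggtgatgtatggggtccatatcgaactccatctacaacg
AT1G46552: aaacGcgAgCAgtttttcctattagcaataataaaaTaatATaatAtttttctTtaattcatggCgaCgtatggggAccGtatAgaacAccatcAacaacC
AT5G38975: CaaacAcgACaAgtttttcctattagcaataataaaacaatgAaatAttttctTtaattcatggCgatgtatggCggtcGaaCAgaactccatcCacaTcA
AT1G46552 shared 84 of the 101 bases with AT2G23330, and AT5G38975 shared 85 with 4 gapped positions. The summits had scores of 231 in AT2G23330, 242 in AT1G46552 and 146 in AT5G38975. On the aligned sequence the summit of AT1G46552 lay 69 bp, outside its printed stretch, and that of AT5G38975 29 bp, from the summit of AT2G23330. In the long elements the summits lay 1671 bp (AT2G23330) and 1739 bp (AT1G46552) from the 5′ end.

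The third set comes from pseudogenes of the ECA1 gametogenesis-related family, small secreted proteins, where near-copies carried summits of very unequal score. The stretch around the summit of AT5G60978 (chr5:24542660-24542760, plus strand) is given with the stretches aligned to it in AT2G18042 (chr2:7844620-7844720, plus strand) and AT3G28985 (chr3:10998141-10998241, plus strand), with capitals as before and AT5G60978 as the base. The stretch of AT2G18042 holds its own summit, and the summit of AT3G28985 lies just outside the stretch printed for it.
AT5G60978: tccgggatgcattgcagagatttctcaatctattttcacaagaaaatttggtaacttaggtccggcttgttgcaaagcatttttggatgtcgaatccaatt
AT2G18042: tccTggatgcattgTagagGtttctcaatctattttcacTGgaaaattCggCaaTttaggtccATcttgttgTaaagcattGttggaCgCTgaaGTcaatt
AT3G28985: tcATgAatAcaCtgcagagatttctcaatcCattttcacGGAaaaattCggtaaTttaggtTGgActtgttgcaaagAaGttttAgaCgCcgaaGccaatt
The score was 699 in AT5G60978, 278 in AT2G18042 and 39 in AT3G28985. The sequences shared 84 (AT2G18042) and 81 (AT3G28985) of 101 bases with AT5G60978, and the summits lay 8 bp and 79 bp from its summit on the aligned sequence. Near-copies in this set thus had summits with scores from near the lowest of the list to its upper part.

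Over all features, members were sparser than summits outside genes and somewhat denser than summits in protein-coding genes. The features held 54.0 members per Mb of sequence outside protein-coding genes, against 189 per Mb outside every annotated gene (8057 summits) and 40 per Mb in protein-coding genes (2581 summits). They covered 10.3 Mb, or 8.70% of the determined bases, and the rule itself fixes which summits are counted, so these densities are a description. The order against sequence outside genes depended on location and unique sequence. Features with at least 99% unique 50-mers held 217 per Mb (190.3 to 245) outside the gene-poor bins defined below and 65.7 (55.0 to 77.8) within them. Sequence outside genes, not limited by uniqueness, held 193 and 179.9 per Mb there.

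Member scores were spread from 28 to 1349, with quartiles of 59.5 and 300.0 and a median of 135. Summits outside genes had a median of 189 (quartiles 94.0 and 380.0) and summits in protein-coding genes a median of 101 (quartiles 58.0 and 243). The 3 groups overlapped over nearly their whole range. A score at or above the list median of 169 was reached by 240 members (42.9%), 4411 summits outside genes (54.7%) and 927 summits in protein-coding genes (35.9%). Members were 11.8 percentage points below summits outside genes (95% Newcombe interval of the difference -16.0 to -7.53) and 7.02 points above summits in protein-coding genes (2.56 to 11.5). Scores were lower in gene-poor bins in both groups, that is, in the 48 of 238 bins of 500 kb with the fewest protein-coding gene starts. Outside these bins the median was 173 for members and 214 for summits outside genes, and within them it was 99 and 136.

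Of the 10 highest-scoring members, 4 lay in non-LTR features, 4 in pseudogenes of ordinary genes and 2 in features without a protein match. The highest, AT1G25430, ranked 22 in the whole list with a score of 1349. This feature of 5327 bp matched a reverse transcriptase-related protein (63.3% identity over 270 amino acids), and its summit lay 19 bp from the annotated 5′ end and 677 bp from BBX15, a B-box zinc finger gene. AT3G44410, a pseudogene of the TIR-NBS-LRR class of disease resistance proteins, followed with 1301. It was the only one of the 10 in a gene-poor bin, and its summit lay 292 bp from the 5′ end. AT2G38260, a pseudogene of the acetyl-CoA carboxylase alpha subunit of fatty acid synthesis, reached 1093, and AT1G20657, an F-box pseudogene, reached 1007.

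The other non-LTR loci among the 10 had their summit near an end. AT2G41570 matched a Ta11-like non-LTR retrotransposon and had a score of 1063, with the summit 5 bp from its 5′ end and 250 bp upstream of ACA4, a calcium-pump gene. In AT1G29650 (score 1037, 5590 bp) the summit lay 297 bp from the 3′ end, and in AT2G31080 (score 953, 3990 bp) it lay 68 bp from the 3′ end and 485 bp upstream of TCP10, a TCP transcription factor gene. All 4 non-LTR loci of this group thus had the summit at most 297 bp from an end. AT5G24065 (922) is a pseudogene of the chloroplast protein Ycf1, and AT5G49746 (897, 617 bp upstream of the ferric reductase gene FRO7) and AT5G25305 (883) had no protein match.

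At the other end of the scale, 4 members shared the lowest score of 28. They lay in AT1G33190 and AT2G25380, which matched other proteins, in AT2G06560, which matched a reverse transcriptase-related protein, and in AT4G14460 of the Copia group.

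**Figure D1:**
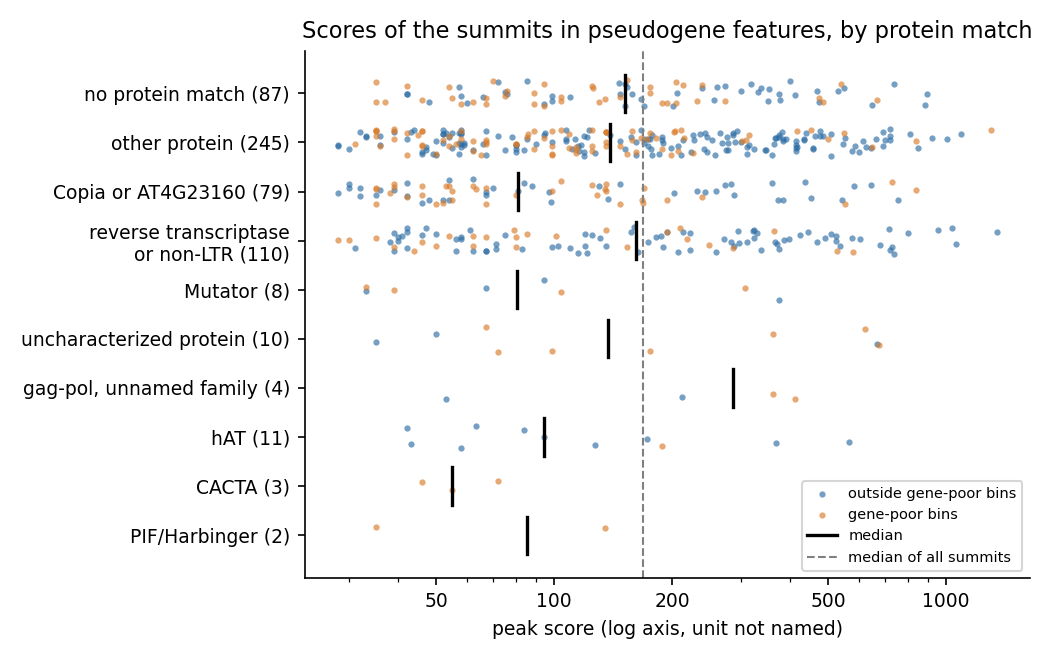
Peak score (x axis, log scale, unit not named in the list) of the 559 members, 1 point each, in rows by the protein that their feature matched, with the number of members in brackets; orange points lie in gene-poor bins, black bars are medians and the dashed line is the median of all summits. The median is 162 for reverse transcriptase or non-LTR matches and 81.0 for Copia matches, and 50 of the 64 members with scores of at least 500 lie outside gene-poor bins.

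The share of features with a summit differed between the classes of protein match, which also differed in unique sequence and in location. Features that matched reverse transcriptase or non-LTR proteins carried a summit most often of the 10 classes, 83 of 298 (27.9%, interval 23.1 to 33.2%). The Copia group reached 51 of 346 (14.7%, 11.4 to 18.9%), and hAT features 10 of 68 (14.7%, 8.19 to 25%). Mutator features carried a summit in 8 of 235 cases (3.40%), CACTA features in 3 of 61 (4.92%) and features matching gag-pol proteins without a named family in 3 of 132 (2.27%). Features that matched another protein carried one in 214 of 1437 cases (14.9%), and features without a match in 79 of 2080 (3.80%), against 463 of 4843 (9.56%) over all features. The median share of 50-mers unique in the genome was 100% in non-LTR, 87.6% in Mutator, 86.6% in CACTA and 93.7% in gag-pol features. Gene-poor bins held 52.3%, 69.4%, 78.7% and 81.1% of these features. Mutator, CACTA, gag-pol and hAT features were not compared with the others at equal uniqueness and location.

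Non-LTR features exceeded the Copia group by 13.1 percentage points (Newcombe interval 6.80 to 19.4), a comparison chosen after the data were seen. Members of the non-LTR group also had higher scores, with a median of 162 against 81.0, and reached the list median in 54 of 110 cases (49.1%) against 23 of 79 (29.1%), a difference of 20 points (5.82 to 32.8). The 110 and 79 summits came from 83 and 51 features, and summits of 1 feature may not be independent. With 1 summit per feature the score difference was 17.9 points (0.478 to 33.8). It was 17.6 points outside gene-poor bins (-0.769 to 33.9) and 11.6 points among members over 1000 bp from protein-coding genes (-4.30 to 26.9). Among features with at least 99% unique 50-mers outside gene-poor bins, 56.0% of the 91 non-LTR features and 30.7% of the 75 Copia features carried a summit, a difference of 25.4 points (10.2 to 38.8). Per Mb of their sequence these held 295 (229 to 373) and 167 (114 to 235) summits, with intervals that overlapped slightly. In gene-poor bins the difference was 2.77 points, with an interval from -3.84 to 9.82, and when only summits over 1000 bp from protein-coding genes were counted it was 2.72 points (-2.65 to 8.22).

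The Copia group joins 2 kinds of match. Of the 116 features that matched a protein named Copia-like, 94 also matched AT4G23160, whose product is named a cysteine-rich receptor-like kinase, and features matching AT4G23160 were therefore placed in the group. Features with a Copia-named match carried a summit in 24 of 116 cases (20.7%), with a median score of 55.0 over 46 summits, and those with AT4G23160 alone in 27 of 234 cases (11.5%), with a median score of 136 over 33 summits. Against Copia-named matches alone the non-LTR features were 6.80 points higher, with an interval from -2.84 to 15.2. Features with any transposon match carried a summit in 160 of 1150 cases (13.9%), 5.71 points above the rest (3.61 to 7.99). This split follows the names of the matched proteins, with AT4G23160 counted as Copia. The rest include AT2G45230 and AT5G24915, whose best match AT4G29090 (ribonuclease H-like) is also the best match of the non-LTR feature AT1G29650. The contrast is therefore not one of transposons against pseudogenes of ordinary genes. Features with a transposon match were also longer, with a median of 2824 bp against 1317 bp. Per Mb they held 62.0 summits (54.0 to 70.8) against 49.6 (44.5 to 55.2), with overlapping intervals. The difference per feature was 16.0 points (8.85 to 23.5) among the unique features outside gene-poor bins, where the densities were 202 per Mb with and 229 per Mb without a match, and -0.0301 points (-3.90 to 4.42) in gene-poor bins at this uniqueness.

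**Figure D2:**
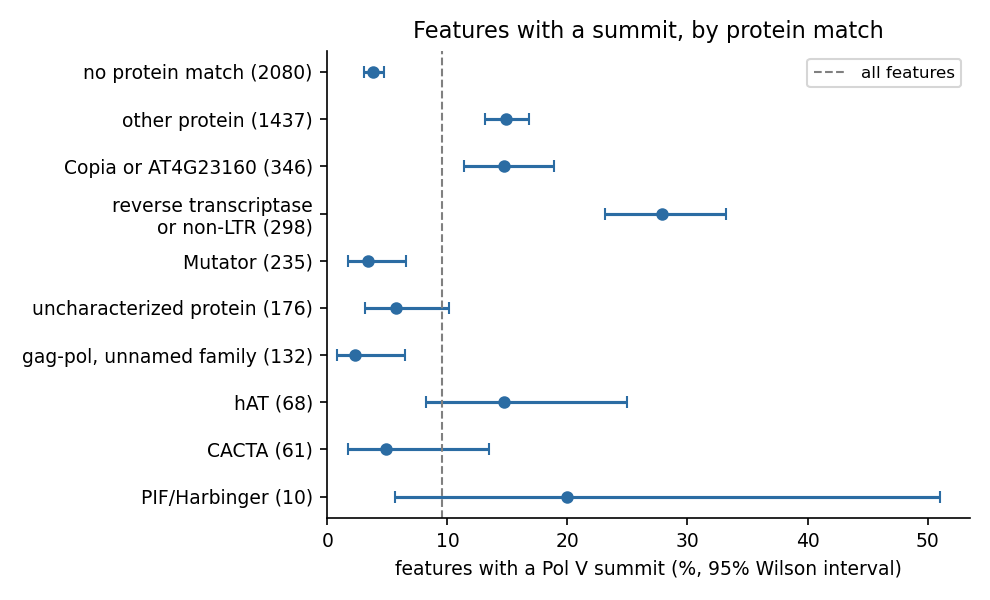
Share of features with at least 1 Pol V summit (x axis, percent, bars are 95% Wilson intervals) by protein match, with the number of features in brackets; the dashed line marks all features. Reverse transcriptase or non-LTR features lie at 27.9%, Copia, hAT and other-protein features at 14.7 to 14.9%, and Mutator, gag-pol, CACTA and unmatched features at 2.27 to 4.92%. The shares are not corrected for unique sequence or location, in which the classes differ.

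The features with transposon text carried a summit in 16 of 69 cases (23.2%), against 139 of 909 features with other text (15.3%). The difference of 7.90 points had an interval of -0.844 to 19.3. It turned to -2.65 points (-13.5 to 16.9) among features of at least 1000 bp and to -0.416 points (-6.00 to 9.11) when only summits over 1000 bp from protein-coding genes were counted. The 16 comprised 8 of 28 features with non-LTR text, 6 of 26 with retrotransposon text of no named family, 1 of 6 CACTA and 1 of 2 Copia features. The 3 hAT, 2 other transposon, 1 Mutator and 1 gypsy features named in text held 0 summits.

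Sadhu elements are short non-coding retrotransposons of Arabidopsis, and 6 of the 16 annotated Sadhu features carried a summit (37.5%, interval 18.5 to 61.4%). The scores were 675 in SADHU1-3, 667 in SADHU3-2, 261 in SADHU8-1, 110 in SADHU6-1, 67 in SADHU9-1 and 50 in SADHU5-1. The 3 lower ones lay close to the 5′ end, at 26 bp in SADHU9-1, 33 bp in SADHU6-1 and 89 bp in SADHU5-1, whereas the summits of SADHU3-2, SADHU8-1 and SADHU1-3 lay 176, 418 and 999 bp from it. Sequences around the Sadhu summits had a mean GC content of 43.1% and a mean CHH share of cytosines of 62.9%, against 38% and 72.9% over all members. In all 10 Sadhu features without a summit every 50-mer was unique.

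Among the pseudogenes whose text names another gene, the counts by family can be set against the 139 of 909 features with text other than a transposon name (15.3%). This set follows the text alone, and AT1G65585, AT3G31005 and AT3G60164 are features in it with a transposon match. The families were picked after their values were seen and are given without a test. F-box proteins are the substrate receptors of SCF ubiquitin ligases, and 24 of 79 F-box pseudogenes (30.4%, interval 21.3 to 41.2%) held 27 members with scores from 33 to 1007. Pseudogenes whose text names a receptor, among them receptor-like kinases and proteins, carried a summit in 9 of 22 cases (40.9%, 23.3 to 61.3%). F-box and receptor features were longer than the 909, with medians of 1122 and 1262 bp against 792 bp. Gene-poor bins held 26.6% and 9.09% of them, against 35.1%. Per Mb they held 291 (192 to 424) and 265 (132 to 474) summits, against 147 (125 to 172), so the receptor interval overlapped. ECA1 and self-incompatibility pseudogenes had 532 (145 to 1362) and 517 (107 to 1510.3) per Mb. The intervals of the shares of the other families included 15.3%. These other families held a summit in 4 of 12 C1 domain, 4 of 14 RING/U-box, 3 of 13 self-incompatibility protein, 2 of 8 methyl-CpG-binding, 2 of 11 disease resistance and 4 of 21 ECA1 pseudogenes, and in 2 of 30 pseudogenes of defensin-like proteins, which are small antimicrobial peptides (6.67%, 1.85 to 21.3%).

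Most features with a summit held only 1, and the 8 with the most summits, ties ordered by their summed score, were led by retrotransposons. AT5G43065, a non-LTR feature of 4215 bp, had 4 summits with scores of 213 at 125 bp from the 5′ end, 125 at 1874 bp, 56 at 2671 bp and 323 at 3762 bp. Its outer summits were the high ones. AT3G29776 of the Copia group (4477 bp) had scores of 194, 38, 53 and 147 from 5′ to 3′, again with the high values outside. AT5G28635 (5361 bp, Copia group) had low scores throughout, 39, 67, 52 and 55.

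AT3G31005, AT2G24750, AT1G65750, AT2G16905 and AT4G16870 held 3 summits each. AT3G31005 is annotated as a formyltransferase pseudogene of 8361 bp that also matched AT4G23160, and it reached 727, 839 and 136 from 5′ to 3′ at 31865 to 37259 bp from the nearest protein-coding gene. AT2G24750, a pseudogene of the glutamate receptor 2.2, had scores of 178, 415 and 52. AT1G65750, a non-LTR feature, had 444, 40 and 67, the MATE efflux pseudogene AT2G16905 had 30, 57 and 439, and the Copia feature AT4G16870 had 70, 130 and 287. In AT1G65750, AT2G16905 and AT4G16870 the summit with the highest score was 245, 148 and 334 bp from the nearer end of the feature. In AT3G31005 and AT2G24750 it was 1973 and 2854 bp from the nearer end.

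Summits lay toward the ends of their features more often than an even spread would give. If summits were spread evenly, 40% would lie in the outer 20% of their features at either end, called the end zones here, and 295 of 559 did (52.8%, Wilson interval 48.6 to 56.9%), 157 at the 5′ and 138 at the 3′ end. The outermost 10% held 88 members at the 5′ end and 91 at the 3′ end, together 179 (32%, against 20%). The share was higher in the biotype pseudogene, with 229 of 397 members in the end zones (57.7%, 52.8 to 62.4%). In transcribed_pseudogene features 66 of 162 lay there (40.7%, 33.5 to 48.4%), a difference of 16.9 points between the biotypes (7.81 to 25.6) that was 10.7 points (-0.188 to 21.2) among members over 1000 bp from protein-coding genes. Members in features of 3000 bp or more had 59.6% in the end zones and 43.6% in the outermost 10% at either end. By protein match the end zones held 61.8% of the 110 non-LTR members (52.5 to 70.4%) and 55.7% of the 79 Copia members (44.7 to 66.1%). For the 87 members without a match the share was 41.4% (31.6 to 51.9%), and the outermost 10% at either end held 17.2%. Whether biotype or protein match goes with the pattern on its own was not tested.

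The excess did not rest on the last bases of the features alone. Without the 131 members within 100 bp of a feature end, 41.6% of the other 428 (37.0 to 46.3%) lay in the end zones. An even spread over the sequence that is left would give 28.9%, averaged over the features of these members. The difference between the biotypes was 20.7 points (10.6 to 29.7) without the 131. An even spread was not worked out for each biotype, so how much of this difference the cut itself gives is not known. Members of the biotype pseudogene lay in features with a median length of 2411 bp, and those of transcribed_pseudogene in features of 1132 bp. The cut of 100 bp takes a larger part of the end zones in shorter features. The median score of the 131 was 158, against 194 for the 132 summits outside genes that lay up to 100 bp beyond a feature end. Members in the end zones had a median score of 147 and the others 119.5.

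**Figure D3:**
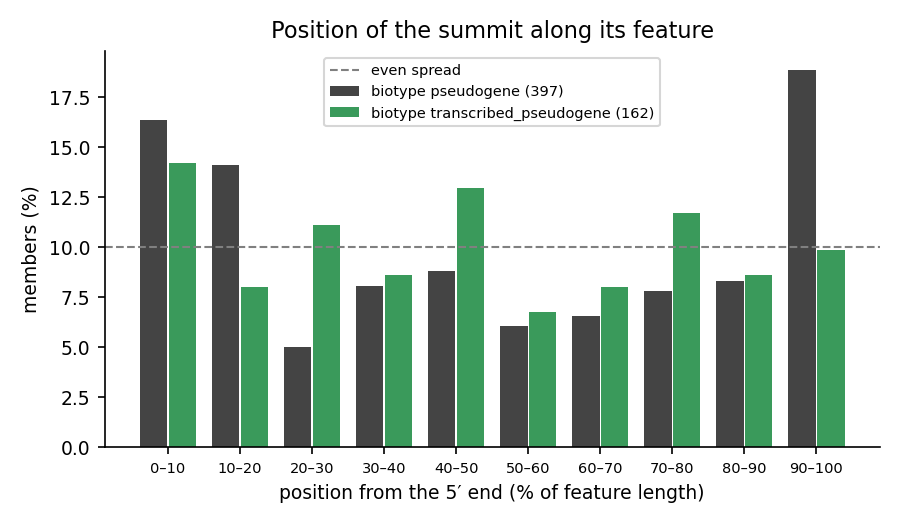
Share of members (y axis, percent of the members of each biotype) in each 10% of the length of the feature from its 5′ to its 3′ end, with the number of members in brackets and the dashed line at an even spread. The biotype pseudogene has 65 of 397 members in the first 10% and 75 in the last, while transcribed_pseudogene features have 23 and 16 of 162.

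Around the ends of non-LTR and Copia features the densest steps lay at different distances, a description for which the 2 groups were not tested against each other. Summits were counted in steps of 200 bp on both sides of the annotated ends of features of at least 1000 bp, per Mb of sequence that is outside protein-coding genes within the feature and outside every annotated gene beyond it. At the 5′ end of the 232 non-LTR features the highest density was in the first 200 bp inside, 441 per Mb (95% Poisson interval 269 to 680.4, 20 summits), next to 412 per Mb in the 200 bp before the end. It then fell to 135 per Mb at 400 to 600 bp inside, and 0 summits lay at 600 to 800 bp, which allows up to 96.2 per Mb. At their 3′ end the highest density was just beyond the end, 633 per Mb (417 to 921, 27 summits), with 357 per Mb in the last 200 bp inside and 29 per Mb at 800 to 1000 bp inside.

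The densest steps of the 311 Copia features lay farther out. At the 5′ end it was 482 per Mb at 600 to 800 bp before the annotated start (298 to 737, 21 summits) and 459 per Mb at 400 to 600 bp, and it was 179.7 per Mb in the first 200 bp inside and 16.4 per Mb at 400 to 600 bp inside. At the 3′ end the density was 212 per Mb in the last 200 bp inside and 406 per Mb at 200 to 400 bp beyond the end (251 to 620.3), with 0 summits at 800 to 1000 bp inside, which allows up to 66.8 per Mb. The long terminal repeats of Copia elements flank the reading frame, and whether the annotated features leave them out was not tested. Within each group the intervals of the highest step and of the innermost step did not overlap, while those of the 2 groups overlapped at the 5′ end both at 600 to 800 bp before the start and in the first 200 bp inside. For all 2866 features with the biotype pseudogene the density went from 98.7 per Mb in the 200 bp before the 5′ end to 23.3 per Mb at 800 to 1000 bp inside, and from 132 to 9.33 per Mb at the 3′ end. The 375 transcribed_pseudogene features had 231 and 97.1 per Mb at the 5′ end, with overlapping intervals. For the biotype pseudogene the density farther out reached 187 per Mb (149 to 232) at 600 to 800 bp before the 5′ end. Beyond the 3′ end it reached 161 per Mb (124 to 207) at 800 to 1000 bp. The highest steps of this biotype thus lay in the flanks and not at the ends.

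**Figure D4:**
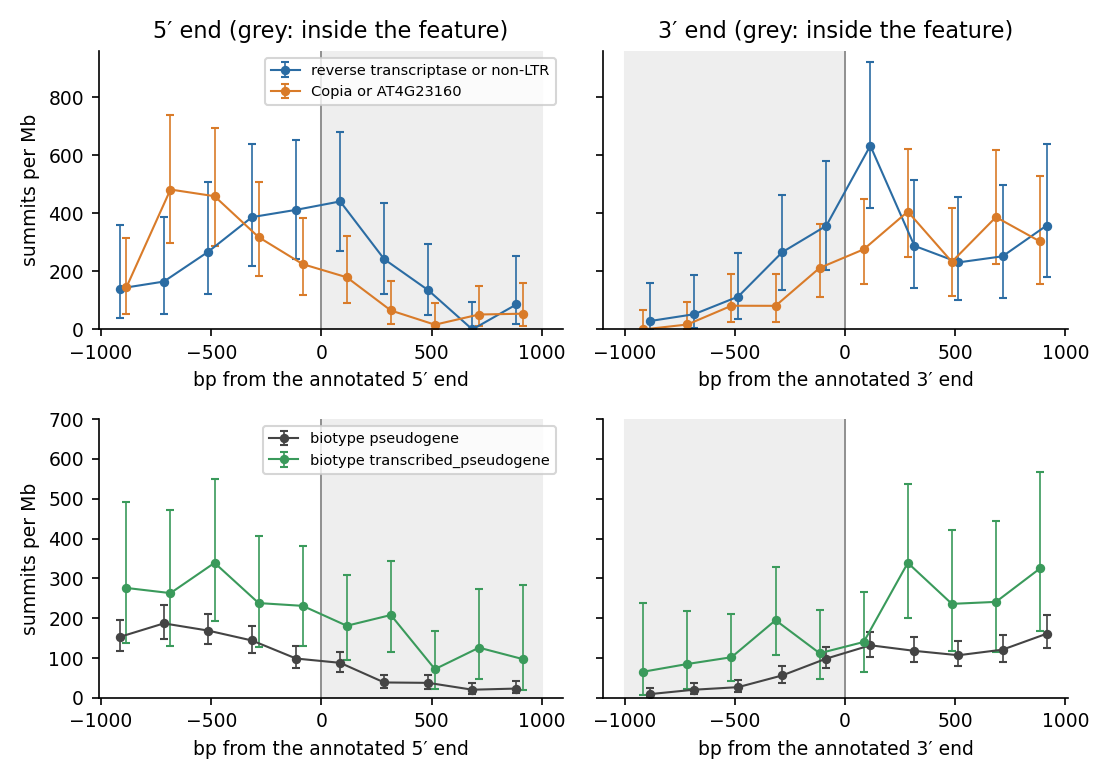
Summits per Mb (y axis, bars are 95% Poisson intervals) in steps of 200 bp around the annotated 5′ end (left) and 3′ end (right) of features of at least 1000 bp, with the inside of the feature in grey. In the upper row non-LTR features peak at the ends, with 441 per Mb inside the 5′ end and 633 per Mb beyond the 3′ end, and the Copia group peaks at 600 to 800 bp before the 5′ end with 482 per Mb; in the lower row the biotype pseudogene declines inward from both ends.

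Where features lay in the genome and how much of their sequence is unique went with the share of features that carried a summit. Gene-poor bins held 202 members (36.1%) and 2180 summits outside genes (27.1%), a difference of 9.08 points (5.08 to 13.3), but they held 69.7% of all features. In density the features had 26.0 members per Mb in gene-poor bins and 139 per Mb elsewhere, a ratio of 5.34. Summits outside genes had 179.9 and 193 per Mb, a ratio of 1.07. The difference of 9.08 points was 3.58 (-1.45 to 8.75) among summits over 1000 bp from protein-coding genes, and 3.17 (-1.96 to 9.09) among summits with scores of at least the list median.

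Only uniquely mapping reads had been kept, and the share of 50-mers that occur once in the genome was taken as an approximate measure of where such reads can map, since the read length of the Pol V ChIP is not given in the sources used here. Among features with under 50% unique 50-mers, 3 of 463 in gene-poor bins (0.648%) and 7 of 283 elsewhere (2.47%) carried one. Among those with at least 99%, the shares were 116 of 1059 (11.0%, 9.21 to 13.0%) and 205 of 794 (25.8%, 22.9 to 29%), a difference of -14.9 points between gene-poor and other bins (-18.5 to -11.3). The median scores of their members were 89.0 in gene-poor bins and 188 elsewhere. The order was the same in each of the 4 largest protein classes at this uniqueness. Gene-poor bins and other bins had shares of 12.5% and 56.0% for non-LTR features, 14.4% and 30.7% for the Copia group, 17.5% and 23.4% for other-protein features and 6.05% and 18.3% for unmatched features.

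**Figure D5:**
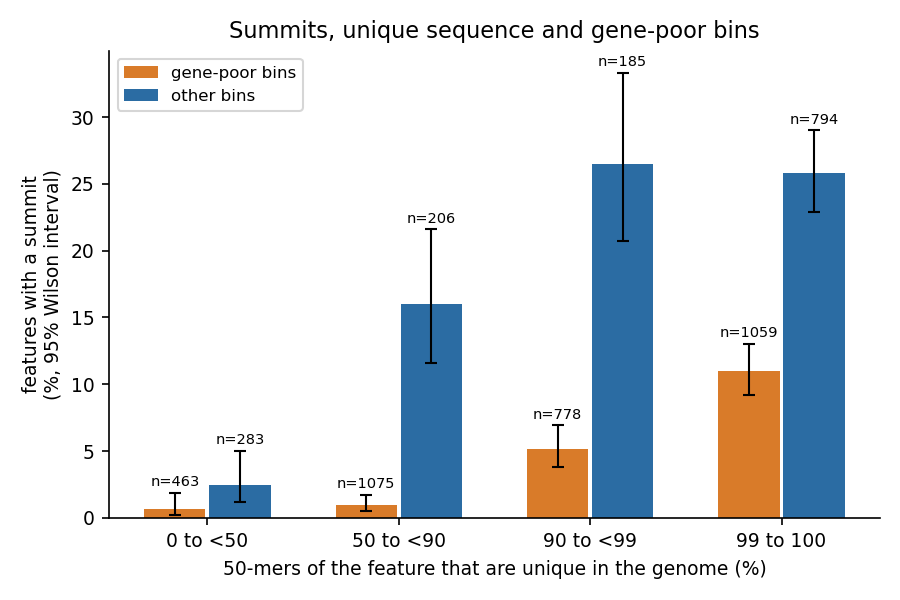
Share of features with a summit (y axis, percent, bars from 0 with 95% Wilson intervals) by the share of their 50-mers that are unique in the genome (x axis, percent) and by whether they lie in a gene-poor bin; n is the number of features. From the least to the most unique class the share goes from 0.648% to 11.0% in gene-poor bins and from 2.47% to 25.8% in other bins, where the class from 90 to under 99% is at 26.5%.

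The order of the 2 biotypes depended on location and on whether features or bases were counted. Over all features 15.7% of transcribed_pseudogene features and 8.12% of pseudogene features carried a summit, 7.54 points more for the former (5.17 to 10.2), and the densities were 154 (131 to 179.8) and 42.5 (38.4 to 46.9) summits per Mb. Among features with at least 99% unique 50-mers outside gene-poor bins the shares were 17.9% of 414 and 34.5% of 380, a difference of -16.6 points (-22.6 to -10.5). The median lengths there were 723 and 1289 bp, and per Mb the 2 biotypes held 207 (164 to 258) and 221 (189 to 258) summits, so the difference per feature was not seen per Mb. In gene-poor bins at the same uniqueness the shares were 17% of 182 and 9.69% of 877, 7.34 points more for transcribed_pseudogene features (2.12 to 13.7), with 164 (112 to 233) and 55.6 (45.4 to 67.5) summits per Mb. At this uniqueness the densities of transcribed_pseudogene features in gene-poor and other bins thus had overlapping intervals, and those of pseudogene features did not. Without the limit on uniqueness, transcribed_pseudogene features held 105 summits per Mb (76.3 to 141) in gene-poor bins and 187 (155 to 224) elsewhere. These intervals did not overlap.

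Sequence near the members was richer in G and C than sequence near summits outside genes. Mean GC content within 250 bp was 38% ± 5.28 (SD over 559 sites) for members, 30.2% ± 4.75 outside genes and 38% ± 6.44 in protein-coding genes, and members exceeded summits outside genes by 7.73 points (95% normal interval 7.28 to 8.18). Cytosines in CHH context were 72.9% ± 7.22 of all cytosines at members and 76.3% ± 8.08 outside genes, a difference of -3.41 points (-4.03 to -2.78), and 71.6% ± 7.87 in protein-coding genes. CHG cytosines made up 13.7% at members, 10.5% outside genes and 13.5% in protein-coding genes, and CG cytosines 13.4%, 13.2% and 15%. By class the mean CHH share ran from 65.9% at the 4 gag-pol members to 80.8% at the 3 CACTA members, with 71.5% at non-LTR and 71.1% at Copia members.

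Members lay farther from protein-coding genes than other summits outside genes did. The median distance was 1851 bp, against 789 bp, and 164 members (29.3%, 25.7 to 33.2%) were within 1000 bp of a protein-coding gene, against 58.3% of summits outside genes. Of these 164, 94 lay on the upstream side with a median score of 229 and 70 on the downstream side with a median of 176, both above the median of 135 over all members. Another summit lay within 1000 bp of 153 members (27.4%) and of 25.3% of summits outside genes, a difference of 2.04 points whose interval included 0 (-1.62 to 5.99). It was -4.55 points (-8.51 to 0.510) among summits with scores of at least the list median and -0.403 points (-4.99 to 4.53) over 1000 bp from protein-coding genes.

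Near-copies elsewhere in the genome were more common for members, and fewer of them carried a summit. A near-copy was counted where at least 80% of the sequence up to 150 bp on each side of the summit aligned at 80% identity or more, and 169 members (30.2%, 26.6 to 34.2%) had at least 1, against 16.4% of summits outside genes (15.6 to 17.2%). The members with the most were AT1G35130 with 59 near-copies (score 39), the ECA1 pseudogenes AT5G60978, AT2G18042 and AT3G28985 with 37, 37 and 36, and AT3G43425 with 29 (score 35). The other 390 members had 0 and cannot be ranked. At least 1 near-copy with its own summit was found for 39 of the 169 members (23.1%) and for 727 of the 1322 summits outside genes with near-copies (55.0%), a difference of -31.9 points (-38.2 to -24.5). Copies of 1 family share their sequence and are not independent, so this interval is too narrow. Of the 627 near-copies of members, 67 held a summit within 150 bp of the aligned position, against 2109 of the 8163 near-copies of summits outside genes. Summits outside genes with near-copies thus had more of them each, which makes at least 1 with a summit easier to find. The shares above are not corrected for this. For members the median shift was 65 bp, and the median identity was 84.4% with and 83.9% without a summit. Members with near-copies had a median score of 109 and those without one 149.5.

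In 15 pairs both near-copies were members. The higher score of a pair was 1.05 to 17.9 times the lower, with a median of 2.13, and the ratio was under 2 in 6 pairs and at least 5 in 4. The pairs AT4G08347 and AT3G42047, Ta11-like non-LTR pseudogenes with scores of 364 and 286, and AT3G23085 and AT5G46195, hAT features with scores of 566 and 369, were among the closer ones. The scores were 492 and 42 in AT1G62890 and AT2G28980, 80 and 720 in AT3G44175 and AT4G01530, and 699 and 39 in the ECA1 pair AT5G60978 and AT3G28985 shown above. AT2G18042 and AT3G28985 of the same set (278 and 39) made up the fourth pair with a ratio of at least 5.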

How the data were processed

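The authors aligned published Pol V and no-antibody ChIP reads to TAIR10 with Bowtie 1.0.0 (unique reads, at most 2 mismatches), removed duplicates with SAMtools 0.1.19, and ran MACS2 with a q-value threshold of 0.05, keeping peaks enriched more than 2-fold. The deposited score is a whole number per peak without a named unit, and positions are 1-based. The list has no per-sample columns (0 unused), and 1 blank record was dropped. All summits lay within the TAIR10.1 chromosomes.

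Features were translated and matched to RefSeq proteins (BLAST+ 2.17.0, e-value 1e-10, best 5 proteins). The class came from the best match with a transposon name, and names such as ribonuclease H-like were not counted as one. AT4G23160 was counted as Copia despite its name. Unique 50-mers were counted genome-wide on both strands. A member in 2 features (3 cases) was counted in the first. Shares have Wilson, differences Newcombe and densities Poisson intervals (95%). The Newcombe intervals and the normal intervals of mean differences were tested on simulated data with independent draws. The Wilson intervals of single shares and the Poisson intervals were not. Members with the 10 highest and 3 lowest scores (4 tied), the best of each text class, features with at least 3 summits (at most 8) and members with the most near-copies were named, with other examples chosen after their values were seen. The members and lists were chosen with earlier results of these data known. Python 3.11.15, NumPy 2.4.6, SciPy 1.17.1, pandas and matplotlib 3.10.9 were used.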

Additional observations from a re-analysis of the deposited data

How the results depend on the processing

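For 15 results, 82 of 101 alternative values kept the direction and the side of the threshold of the reported value, or for the share of summits stayed within its interval, and the others did not. An interval that includes 0, or for the end zones the share an even spread gives, counts as not passing. The share of summits that are members, reported as 4.87%, was 4.17% among summits with at least the list median score, 3.73% without members under 100 bp from a feature end and 10.2% among summits over 1000 bp from protein-coding genes, where fewer summits enter. The excess of transposon text over other text passed with summits in protein-coding genes kept (9.13 points) and changed sign for features of at least 1000 bp (-2.65) and over 1000 bp from protein-coding genes (-0.416). The neighbour difference passed at 3000 bp (7.54 points) and changed sign at or above the median score (-4.55) and over 1000 bp from protein-coding genes (-0.403). All 4 of these had intervals that include 0. The gene-poor difference did not pass among summits with at least the median score (3.17) or over 1000 bp from protein-coding genes (3.58). Counting only summits over 1000 bp from protein-coding genes also ended the calls for non-LTR against Copia features (2.72), their scores (11.6) and the biotype difference in the end zones (10.7). The non-LTR excess did not pass in gene-poor bins (2.77) or against Copia-named matches (6.80), nor the score difference outside gene-poor bins (17.6). The biotype difference reversed to -16.6 points among unique features outside gene-poor bins when counted per feature, with 207 and 221 summits per Mb, and the transposon-match difference was -0.0301 points among unique features in gene-poor bins. The cause of these changes was not tested. Filtering on the median score gives no value for score shares, nor merging summits for neighbours. The 6 comparisons by protein match, biotype and uniqueness were chosen after seeing the data. No paired analysis was possible because the list comes from 1 peak call. Depth is unknown from the list.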
